A study of Mus musculus with 12 samples.

Results

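The genes described here encode the proteins of the cytosolic ribosome. They were taken by symbol: large subunit genes (Rpl followed by a number), small subunit genes (Rps followed by a number), the stalk genes Rplp0, Rplp1 and Rplp2, and Rpsa. Among 20194 genes in the muscle RNA data 82 carried such a symbol, and 80 of them, 48 of the large (60S) and 32 of the small (40S) subunit, averaged 1 FPKM or more over the 6 libraries (FPKM is a read level scaled to transcript length and library depth). Rpl32l, at a mean of 0.466 FPKM, and Rpl39l, at 0.272 FPKM, were the 2 below that minimum, and Rps4l, at 6.42 FPKM, and Rpl21, at 22.7 FPKM, were the lowest that passed. Of 38244 chromatin accessibility peaks 122 were named for one of these genes, at 72 genes.

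The RNA came from muscle of C57BL/6 mice (also written C57BL/6J), an inbred strain. There were 3 LLC libraries, from mice injected under the skin with 500000 Lewis lung carcinoma cells, a tumour line that causes cachexia, the wasting of muscle and fat, and killed after 22 days, and 3 PBS libraries from control mice injected with PBS. The labels tag the cell type of both groups as cachexia. The accessibility data (ATAC-seq, in which a transposase tags open chromatin) came from myotubes of the mouse C2C12 line, C3H genotype, differentiated in horse serum. There were 3 C26 libraries, from cultures given medium conditioned by Colon-26 carcinoma cells for 24 hours, and 3 control libraries without that medium. The labels name neither the muscle sampled nor the sex or age of the mice, call the C2C12 cells myoblasts although the titles call them myotubes, and do not say that replicates were separate animals or cultures, so p-values measure the spread between these libraries, which may be technical in part. The C2C12 line is 1 clonal line grown in a dish, and conditioned medium stands in for a tumour there.

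Ribosomal proteins assemble on ribosomal RNA into the small subunit, which reads the messenger RNA, and the large subunit, which joins the amino acids. Nearly all of their messenger RNAs begin with a run of pyrimidines, the 5′ terminal oligopyrimidine (TOP) tract, through which the kinase complex mTORC1 controls their translation by way of the protein LARP1 and the 4E-BPs. The genes are transcribed in every cell type, and in muscle loading and feeding raise ribosome production while disuse and wasting are known to lower it. TOP control acts mostly on translation, so messenger RNA levels such as these do not report it.

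The libraries held 25.7 to 32.5 M (M for 1000000) recovered read ends in genes, the fewest in PBS 1. Muscle fibre markers were high in all of them, with summed levels of 55108, 59450 and 62609 FPKM in LLC libraries, against 57330, 57104 and 50358 FPKM in PBS libraries. PBS 1 stood apart from the other libraries, and markers of bone marrow cells varied widely within both groups. The 10 neutrophil markers summed to 6198.5, 10996 and 196.68 FPKM in LLC 1, 2 and 3, against 134.36, 6585.2 and 12427 FPKM in PBS 1, 2 and 3. Because PBS 1 bears on nearly every RNA value below, most RNA differences are given with and without it.

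The ribosomal protein genes were among the most abundant messages of the muscle libraries. They took 5.27, 5.68 and 4.76% of the summed FPKM in LLC libraries, against 3.04, 4.87 and 5.71% in PBS libraries. The LLC mean was 5.24% ± 0.463 and the PBS mean 4.54% ± 1.36 (SD, n = 3 each), a difference smaller than the spread within the PBS group. Without PBS 1 the PBS mean was 5.29%. The 60S genes had a median of 230.6 FPKM and the 40S genes a median of 281 FPKM. Their summed levels kept nearly the same proportion in each library: the 60S sum was 1.47, 1.43 and 1.46 times the 40S sum in LLC libraries and 1.37, 1.43 and 1.41 times in PBS libraries.

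Levels ran from 6.42 FPKM for Rps4l, which the deposited table annotates as a pseudogene, to 664 FPKM for Rplp0. The highest members were Rplp0, Rps2, Rpl4, Rplp1 and Rps4x, with means of 664, 614, 569.7, 492 and 470.2 FPKM. Rps2 and Rps4x belong to the small subunit and Rpl4 to the large, and Rplp0 and Rplp1 form the stalk that recruits elongation factors. Proteins that a ribosome holds in near-equal amounts thus differed widely in message level. Part of the low end goes with the transcript length that the table assigns: Rps15a and Rps20, at 28.6 and 43.6 FPKM, are listed with transcripts of 5127 and 3440 bases, against a median of 716.5 bases over the members, and a long listed transcript lowers FPKM. These genes also have many near-identical processed copies in the genome. How reads that fit several places were counted is not given in the sources used here, so levels of single members are uncertain.

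**Figure D1:**
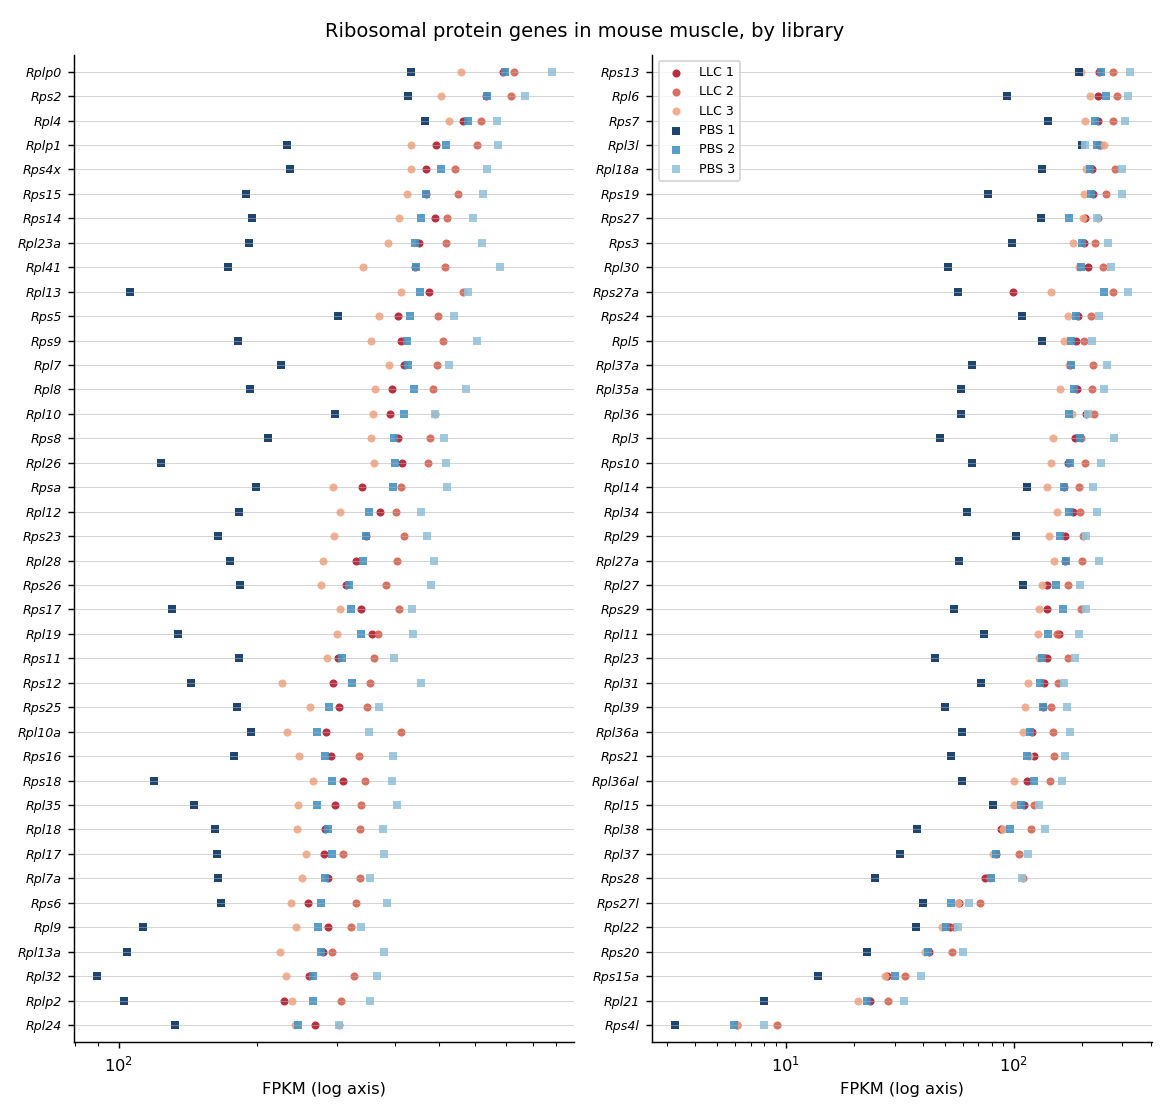
Level of each of the 80 ribosomal protein genes in FPKM (log axis, left panel the 40 highest by mean, right panel the other 40, one row per gene). Circles are LLC and squares PBS libraries. The PBS 1 square is the leftmost point in all 80 rows.

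With all 6 libraries, 76 of the 80 ribosomal protein genes had a higher mean log level in LLC than in PBS muscle, but none passed the test in either direction. The median log2 difference, LLC minus PBS, was 0.22 over the 80 members, beside 0.01 over the 12981 genes tested, of which 52.96% lay above 0. The median was 0.22 for the 60S genes, of which 47 of 48 were above 0, and 0.22 for the 40S genes, of which 29 of 32 were. Single members ran from -0.08 for Rps13 to 0.66 for Rpl13, with standard errors from 0.11 to 0.73.

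The test was limma on log2(FPKM + 1) over all genes with Benjamini-Hochberg adjustment. At an adjusted p below 0.05 it called 0 members, and 0 of the 12981 genes tested (0% called). The smallest adjusted p of a member was 0.865. At an unadjusted p below 0.05 it took 0 of the 80 members, beside 7.63% of all genes tested. With edgeR and with DESeq2 on the recovered reads, 0 members were called and 0 had an unadjusted p below 0.05. Over all genes tested 7.18% with edgeR and 9.68% with DESeq2 had an unadjusted p below 0.05, and after adjustment edgeR called 0 genes and DESeq2 called 244 higher and 68 lower.

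The direction rested on 1 library. Without PBS 1 the median of the members was -0.18 and 75 of 80 lay below 0. Over all genes tested the median was then -0.07 and 59.6% lay below 0. Without PBS 3 the median of the members was 0.53 and all 80 lay above 0, beside a median of 0.07 over all genes tested. Either way no member was called.

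All 80 members had their lowest value in PBS 1, whereas 49.3% of all genes tested had theirs there. For 73 of the 80 the highest value was in PBS 3, as it was for 35.1% of all genes tested. In 68 of the 80 members the libraries stood in one order, with PBS 1 lowest, then LLC 3, then LLC 1 and PBS 2 in either order, then LLC 2, and PBS 3 highest, an order shown by 7.29% of all genes tested. It is the order of the members' own mean log level, with LLC 1 at 7.73 and PBS 2 at 7.74. A larger share among the members is therefore partly built in. PBS 1 and PBS 3, both from the control group, thus lay at the ends, and the LLC libraries lay between them. The highest library of a group was 1.33 times the lowest for the median member within LLC, beside 1.28 times for the median of all genes tested, and 2.78 times within PBS, beside 1.55 times.

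**Figure D2:**
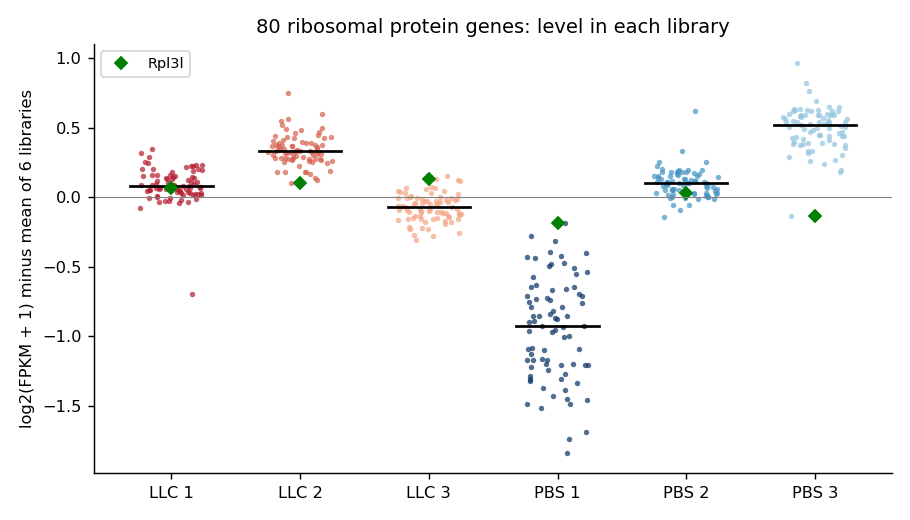
Each point is 1 ribosomal protein gene, plotted as log2(FPKM + 1) in a library minus its mean over the 6 libraries. Black lines are medians over the 80 genes and green diamonds mark Rpl3l. The median is -0.93 in PBS 1 and 0.52 in PBS 3, and the medians of LLC 1, 2 and 3 (0.08, 0.33 and -0.07) lie between them.

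The shortfall in PBS 1 was uneven over the members. Its level was 48.0% of the median of the other 5 libraries for the median member, with quartiles of 37.6 and 60.1%, beside 80.9% for the median of all genes tested. It was under 40% for 29 members and over 70% for 8. Rpl13, a 60S protein gene, stood lowest at 22.2%. It had 476, 564 and 414 FPKM in LLC libraries, against 106, 455 and 577 FPKM in PBS libraries, so PBS 1 alone lay far below and the other 5 libraries overlapped. Its log2 difference was 0.66 ± 0.65 (SE, limma, n = 3 each, unadjusted p = 0.346), and -0.09 without PBS 1.

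Rpl30 and Rpl36, also of the 60S subunit, had the same shape. Rpl30 had 213, 246 and 194 FPKM in LLC libraries, against 51.5, 198 and 268 FPKM in PBS libraries. Rpl36 had 207, 225 and 179.9 FPKM in LLC libraries, against 58.7, 175 and 213 FPKM in PBS libraries. The LLC values of both lay within the PBS range apart from LLC 2 of Rpl36, which lay just above it. Rpl36 differed by 0.64 ± 0.49 and Rpl30 by 0.62 ± 0.61 (log2, SE). Without PBS 1 they differed by 0.08 and -0.09.

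At the other end, Rpl4 in PBS 1 was at 80.3% of the median of the other 5. It had 563, 618 and 526 FPKM in LLC libraries, against 465, 579 and 667 FPKM in PBS libraries, a log2 difference of 0.01 ± 0.17, and of -0.13 without PBS 1. Over the 80 members the percentage in PBS 1 had a Spearman correlation of 0.36 with transcript length and 0.12 with mean level, values that describe these genes in 1 library and are not independent.

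The stalk of the large subunit is built of Rplp0, its base, and the acidic proteins Rplp1 and Rplp2, which contact elongation factors. Rplp0 had 688, 729.8 and 557 FPKM in LLC libraries, against 435 FPKM in PBS 1, 696 FPKM in PBS 2 and 880.5 FPKM in PBS 3. Rplp1 had 491, 606 and 434 FPKM in LLC libraries, against 232, 519 and 671 FPKM in PBS libraries. Rplp2 had 229, 305 and 238 FPKM in LLC libraries, against 103, 264.8 and 354 FPKM in PBS libraries. For all 3 the LLC values lay inside the PBS range, and the log2 differences were 0.02 ± 0.29, 0.22 ± 0.41 and 0.26 ± 0.47 for Rplp0, Rplp1 and Rplp2. Without PBS 1 they were -0.26, -0.22 and -0.26.

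Rps6 is the subunit that S6 kinase phosphorylates downstream of mTORC1. Its message was at 259, 329 and 238 FPKM in LLC libraries, against 167, 276 and 384 FPKM in PBS libraries, and the log2 difference was 0.06 ± 0.32, or -0.26 without PBS 1. Rpl5 and Rpl11 form a particle with 5S ribosomal RNA that, when it is free, binds Mdm2. Rpl5 differed by 0.09 ± 0.21 and Rpl11 by 0.21 ± 0.36, and by -0.10 and -0.17 without PBS 1. Rpsa, a small subunit protein also known as a laminin receptor, had 339, 413 and 294 FPKM in LLC libraries, against 199.5, 397 and 519.9 FPKM in PBS libraries. Its difference was 0.00 ± 0.37, or -0.40 without PBS 1, and again the LLC values lay inside the PBS range.

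Rps27a, made as a fusion with ubiquitin, departed from the others in an LLC library. It had 99.6, 274 and 146 FPKM in LLC libraries, against 57.2, 249.9 and 317 FPKM in PBS libraries. LLC 1 was therefore low for this gene, while the other members in LLC 1 stood close to PBS 2. Its highest LLC value was 2.75 times its lowest, the widest range of any member within that group.

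Rpl3l was the one member whose level hardly moved. It encodes a form of the 60S protein L3 that is made in striated muscle, where it takes the place of Rpl3 in a share of ribosomes. Rpl3l had 237, 243 and 249 FPKM in LLC libraries, against 199.9, 231 and 206 FPKM in PBS libraries. All 3 LLC values lay above all 3 PBS values, which made Rpl3l the one member of the 80 (1.25%) whose groups did not overlap, beside 13.4% of all genes tested. The log2 difference was 0.20 ± 0.11 (SE, limma adjusted p = 0.865), and 0.15 without PBS 1.

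Its ubiquitous counterpart Rpl3 had 186, 198 and 149 FPKM in LLC libraries, against 47.6, 196 and 275 FPKM in PBS libraries. Between its highest and lowest PBS library Rpl3 differed 5.78 times, the widest of the members, and Rpl3l 1.16 times, the narrowest. The log2 ratio of Rpl3l to Rpl3 was 0.35, 0.30 and 0.73 in LLC libraries, against 2.05, 0.24 and -0.41 in PBS libraries. The mean ratio in LLC minus that in PBS was -0.16 (exact permutation p = 1, two-sided, n = 3 each, smallest p possible 0.1), and 0.55 without PBS 1. Rpl3l exceeded Rpl3 in all LLC libraries and in PBS 1 and PBS 2.

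Rps27l, a close copy of the small subunit gene Rps27 that p53 induces, followed its parent. Rps27l had 57.7, 71.0 and 57.1 FPKM in LLC libraries, against 40.1, 52.9 and 63.9 FPKM in PBS libraries. Rps27 had 205, 234 and 202 FPKM in LLC libraries, against 132, 175 and 232 FPKM in PBS libraries. The log2 ratio of Rps27l to Rps27 was -1.77 ± 0.06 in LLC and -1.75 ± 0.08 in PBS libraries (SD, n = 3 each, exact permutation p = 0.8, two-sided). The table places the retrogene Rps27rt at the locus of Rps27, and its values were nearly equal to those of Rps27 in every library, so their reads cannot be told apart here.

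Rpl36a and its autosomal copy Rpl36al, nearly identical in sequence, also ran in parallel, with a log2 ratio of Rpl36al to Rpl36a of -0.08 ± 0.05 in LLC and -0.02 ± 0.08 in PBS libraries (SD). Rps4l stood far below its parent Rps4x, at a log2 ratio of -5.91 ± 0.15 in LLC and -6.05 ± 0.21 in PBS libraries (SD). Its 104 to 297 recovered read ends per library may in part belong to Rps4x, since the copies are alike. Rpl39l, a testis form of Rpl39, had at most 14 read ends in a library. Rpl10l was not in the RNA table used here.

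**Figure D3:**
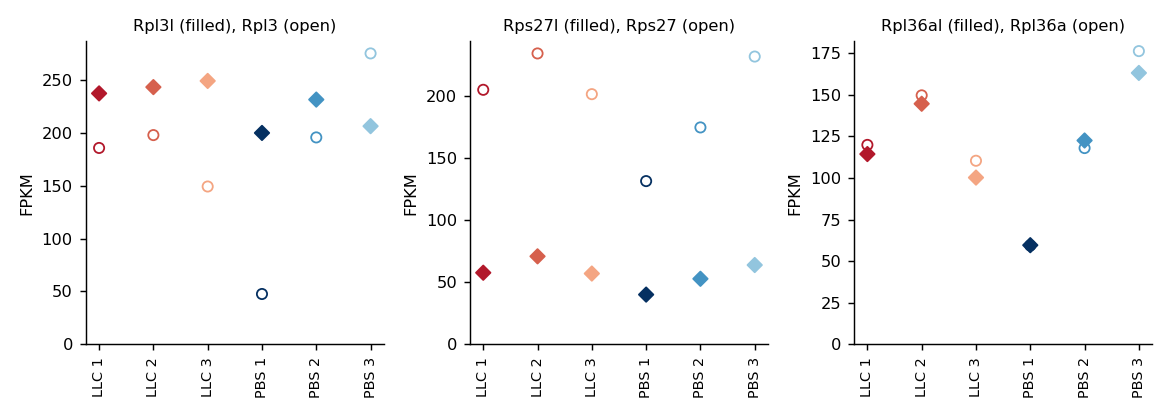
FPKM (linear axis from 0) of 3 paralogs (filled diamonds) and their parent genes (open circles) in each library. Rpl3l stays between 199.9 and 249 FPKM while Rpl3 runs from 47.6 to 275 FPKM, and the Rps27l and Rpl36al points follow those of Rps27 and Rpl36a.

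Some ribosomal proteins carry symbols that the rule leaves out. Of 6 such genes (Rps3a1, Rpl22l1, Rack1, Rps27rt, Rpl7l1 and Fau), 5 were lowest in PBS 1 and 3 had a log2 difference above 0, with none called. Their median was 0.03 with all libraries and -0.24 without PBS 1, where 5 of the 6 lay below 0. Rps27rt was among the 3 above 0 and was the only gene above 0 without PBS 1, at 0.09. Its reads cannot be told apart from those of the member Rps27, so it adds no separate gene. Rps3a1, a small subunit gene, had 384, 467 and 337 FPKM in LLC libraries, against 338, 489 and 649 FPKM in PBS libraries.

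Other genes with known 5′ TOP tracts, mostly elongation and initiation factors, moved between libraries much as the ribosomal proteins did. Of 19 tested, 18 were lowest in PBS 1, 16 had a log2 difference above 0, the median was 0.14 with all libraries and -0.18 without PBS 1, and none was called. Eef2, the elongation factor that moves the ribosome along, had 494, 591 and 539 FPKM in LLC libraries, against 343, 447 and 478 FPKM in PBS libraries. The groups did not overlap and the log2 difference was 0.37 ± 0.17 (SE, limma adjusted p = 0.733), and 0.22 without PBS 1. Eif4b, an S6 kinase substrate that helps the helicase of initiation, had 72.5, 86.4 and 83.6 FPKM in LLC libraries, against 67.1, 67.9 and 67.8 FPKM in PBS libraries, a log2 difference of 0.25 ± 0.11 (adjusted p = 0.709), and 0.25 without PBS 1.

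Ribosome biogenesis genes, which make and process ribosomal RNA, had a median log2 difference of 0.10 over 32 tested, with 29 lowest in PBS 1, 26 above 0 and none called. Without PBS 1 their median was -0.08. The smallest p belonged to Rrp9, a U3 snoRNP protein, at 10.0, 11.3 and 10.8 FPKM in LLC libraries, against 7.76, 8.41 and 9.95 FPKM in PBS libraries. Its log2 difference was 0.28 (limma adjusted p = 0.725), and 0.21 without PBS 1. Polr1b had 5.11, 6.04 and 6.25 FPKM in LLC libraries, against 4.54, 5.15 and 4.96 FPKM in PBS libraries. That was a log2 difference of 0.21, and of 0.16 without PBS 1. Sbds, which helps to release a factor that keeps the subunits apart, had 20.9, 26.2 and 24.8 FPKM in LLC libraries, against 14.8, 21.1 and 22.1 FPKM in PBS libraries, a log2 difference of 0.31, and of 0.14 without PBS 1.

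Genes that control mTORC1 and cap-dependent translation did not share the library order of the ribosomal proteins: 5 of 22 were lowest in PBS 1. Their median log2 difference was 0.10, or 0.08 without PBS 1, with 15 above 0 and 7 below, and none was called after adjustment. Ddit4, which encodes REDD1, an inhibitor of mTORC1, had 12.1, 17.9 and 21.2 FPKM in LLC libraries, against 5.27, 7.68 and 9.62 FPKM in PBS libraries. All LLC values lay above all PBS values, and the log2 difference was 1.08 ± 0.28 (limma unadjusted p = 0.00841, adjusted p = 0.41), or 0.88 without PBS 1. Eif4ebp1, the translation repressor 4E-BP1 that mTORC1 switches off, had 47.8, 77.5 and 71.6 FPKM in LLC libraries, against 31.9, 40.4 and 40.9 FPKM in PBS libraries. Its groups did not overlap either, and the difference was 0.76 ± 0.22 (unadjusted p = 0.0135, adjusted p = 0.446), or 0.65 without PBS 1.

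The libraries with low ribosomal protein levels were also low in a pooled score of marrow markers. The marrow score, the mean log2 level of 28 neutrophil, erythroid and B cell markers set to a mean of 0, was -0.24, 0.71 and -1.89 in LLC 1, 2 and 3, and -2.49, 1.60 and 2.30 in PBS 1, 2 and 3. PBS 1 and LLC 3 were the lowest on both measures and PBS 3 the highest. Summed erythroid markers were also lowest in PBS 1 and LLC 3, at 17.55 and 34.6 FPKM. Summed B cell markers did not share that order. They were at 11.1, 8.40 and 81.7 FPKM in LLC 1, 2 and 3. In PBS 1, 2 and 3 they were at 9.96, 114.6 and 176.4 FPKM. The 2 measures parted between PBS 1 and LLC 3: neutrophil markers summed to 196.68 FPKM in LLC 3 and 134.36 FPKM in PBS 1, while the ribosomal protein genes summed to 18330 FPKM in LLC 3 and 10634 FPKM in PBS 1. Cell cycle markers summed to 106.55, 214.36 and 37.446 FPKM in LLC libraries, against 28.4, 317.07 and 514.22 FPKM in PBS libraries, and all 10 were lowest in PBS 1. All 8 epidermis markers were lowest in PBS 1 too, but otherwise they followed neither measure. They summed to 1351.3, 68.296 and 549.41 FPKM in LLC libraries, against 1.236, 9.259 and 131.99 FPKM in PBS libraries. Tendon and bone markers summed to 331.6, 153 and 72.892 FPKM in LLC libraries, against 428.71, 578.93 and 451.41 FPKM in PBS libraries. In such bulk samples fewer cells of a type and less RNA per cell cannot be told apart.

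With the marrow score as a covariate the median log2 difference of the members was 0.44 and all 80 lay above 0, beside a median of 0.07 over all genes tested. At an unadjusted p below 0.05 this fit took 62 of the 80 members, 77.5%, beside 21.5% of all genes tested. None was called after adjustment, with a smallest adjusted p of 0.0698, although 172 other genes were. Without PBS 1 the same fit gave a median of 0.26 and took 1 of the 80 members at that unadjusted p, beside 9.34% of all genes tested.

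**Figure D4:**
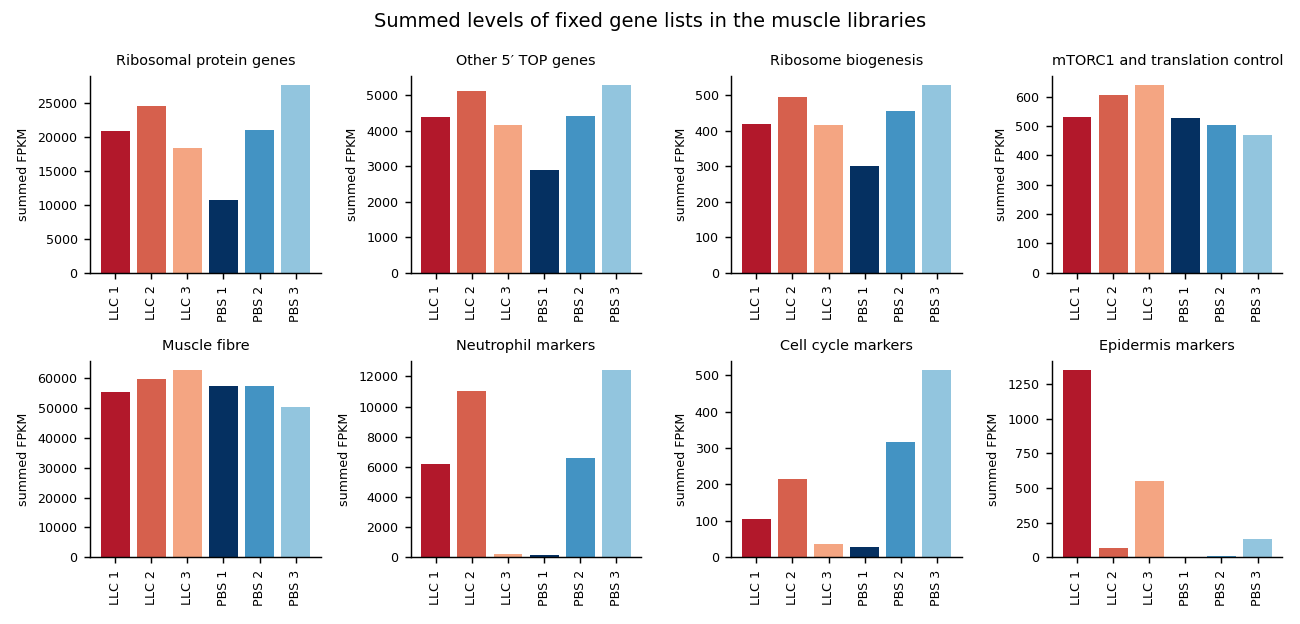
Summed FPKM of the ribosomal protein genes and of 7 other gene lists in each muscle library (bars from 0, 1 bar per library). Ribosomal protein, other TOP and biogenesis sums are lowest in PBS 1 and highest in PBS 3, the neutrophil sums are near 0 in LLC 3 and PBS 1, and the muscle fibre sums vary least.

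Among 5231 other genes averaging 10 FPKM or more, those whose log2(FPKM + 1) followed the mean of the members most closely over the 6 libraries were Smim11, Capg, Bola2, Trmt112 and Rbm42, with Pearson correlations of 0.999, 0.998, 0.997, 0.997 and 0.996. Capg, an actin-capping protein of macrophages and other cells, had 30.5, 35.3 and 24.97 FPKM in LLC libraries, against 12.0, 30.0 and 41.7 FPKM in PBS libraries. Trmt112 encodes the shared partner of several methyltransferases that modify ribosomal and transfer RNA and release factors. Of the 79 members at that level, 75 correlated with the mean of the members above 0.9, and Rpl3l did so least, at 0.418. These values describe 6 libraries that share the low PBS 1 value. The mean of the members holds each member's own values, and the share of other genes above 0.9 was not counted. The 75 of 79 therefore has no background to be set beside.

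In C2C12 cells the starts of the ribosomal protein genes lay in open chromatin. A peak lay within 1000 bases of the annotated start of 78 of the 80 members, beside 75.5% of all genes tested in muscle RNA and 78.5% of the 512 genes with at least 100 FPKM there. The exceptions were Rpl3l and Rps4l. At 8 of the 78 starts (those of Rpl34, Rpl36al, Rps2, Rps28, Rpl7, Rps25, Rpl7a and Rps27) the peak carried the name of a neighbouring gene in the deposited table, so these are not among the peaks counted by name.

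Of the 122 peaks named for a member, 121 had a mean of at least 5 normalized tags (the authors scaled each library to 10 M tags) and were tested. Promoter peaks, those centred within 1000 bases of a start, numbered 70, at 70 genes, and 51 lay farther off, 17 of them over 50000 bases from the start, where the name is only that of the nearest gene. Promoter peaks of the members had a median width of 716.5 bases and a median signal of 47.5 normalized tags, close to the 725 bases and 50.3 normalized tags of all 10777 promoter peaks. Of these 63 of 70 (90%) were in the authors' peak lists of all 6 libraries, beside 82.4% of all promoter peaks.

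Promoter sequences from RefSeq (build GRCm38.p6) were matched for 59 of the 80 members, each from 250 bases before to 50 after the start. Shown first are the 5 promoters whose peaks were among the 6 member peaks with the smallest p in the accessibility comparison below, then those of Rps6, of Rpl13, the member lowest in PBS 1, and of Rpl3l, which had no peak. Each runs from 100 bases before the start to 15 after it, 5′ to 3′ on the strand of the gene, so that the base 15 from the end is the first transcribed one. Capitals mark matches to CTTTC (from 50 before to 50 after the start, gene strand only), and to CCGGAAG, TCGCGAGA and GGGCGG on either strand, letters chosen after these sequences were read.
Rpl27a, chr7:109519095-109519209, plus strand: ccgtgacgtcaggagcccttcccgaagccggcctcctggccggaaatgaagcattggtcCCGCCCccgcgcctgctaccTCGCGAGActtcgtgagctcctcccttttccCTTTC
Rps15a, chr7:118116133-118116247, minus strand: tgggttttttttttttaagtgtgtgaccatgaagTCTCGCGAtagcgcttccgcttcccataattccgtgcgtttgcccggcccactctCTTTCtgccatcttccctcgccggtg
Rpl9, chr5:65391417-65391531, minus strand: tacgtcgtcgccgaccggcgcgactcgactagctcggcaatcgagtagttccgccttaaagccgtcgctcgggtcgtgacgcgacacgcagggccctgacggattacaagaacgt
Rps19, chr7:24884492-24884606, plus strand: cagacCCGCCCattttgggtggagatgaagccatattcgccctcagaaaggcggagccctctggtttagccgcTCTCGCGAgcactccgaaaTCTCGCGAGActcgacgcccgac
Rps16, chr7:28350589-28350703, plus strand: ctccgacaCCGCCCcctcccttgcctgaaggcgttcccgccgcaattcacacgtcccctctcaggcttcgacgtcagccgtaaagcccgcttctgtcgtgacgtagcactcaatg
Rps6, chr4:86857353-86857467, minus strand: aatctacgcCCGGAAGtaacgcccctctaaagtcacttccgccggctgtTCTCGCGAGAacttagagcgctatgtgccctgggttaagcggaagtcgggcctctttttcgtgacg
Rpl13, chr8:123102250-123102364, plus strand: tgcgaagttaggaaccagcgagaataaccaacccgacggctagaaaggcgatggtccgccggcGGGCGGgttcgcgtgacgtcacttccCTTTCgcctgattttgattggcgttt
Rpl3l, chr17:24727726-24727840, plus strand: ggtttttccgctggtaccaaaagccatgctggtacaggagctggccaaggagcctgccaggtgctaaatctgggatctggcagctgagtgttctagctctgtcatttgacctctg

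Rps6 and Rps15a begin at the annotated start with a C and a run of pyrimidines, the form of a TOP tract, and Rpl27a does so within 5 bases of it, whereas Rpl3l does not. A C followed by at least 4 C or T stood at the first transcribed base in 12 of the 59 members (20.3%), beside 2.51% of 32851 RefSeq promoters of the same length. Within 5 bases on either side it stood in 27 of 59 (45.8%), beside 18.3%. The annotated start can lie some bases from the one used, so an absent tract says only that these letters are not at that place.

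The letters CTTTC stood around the start of 31 of the 59 members (52.5%), beside 12.8% of all promoters. CCGGAAG, the core that ETS family factors bind, was in 22 (37.3%), beside 8.86%. TCGCGAGA, which reads nearly the same on both strands, was in 9 (15.3%), beside 0.995%, among them Rpl27a, Rps15a, Rps19 and Rps6. GGGCGG, the GC box that Sp1 binds, was in 36 (61.0%), beside 35.7%. None of the 4 was found in its window at Rpl3l or at Rpl9. The letters were chosen after the sequences shown above were read, and those promoters are among the 59. Larger shares among the members are thus partly built in. CTTTC is itself a C followed by 4 C or T, so its count can overlap that of the TOP form. These counts describe letters in the reference sequence and say nothing of binding in these cells.

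On the deposited scale all 70 promoter peaks of ribosomal protein genes were lower in C26 than in control cells. So were 10567 of all 10777 promoter peaks, and none of the 70 passed the test. The median log2 difference, C26 minus control, was -0.82, beside -0.69 over all promoter peaks and -0.54 over all 37358 peaks tested. With limma on log2(normalized tags + 1), 0 of the 121 member peaks were called at an adjusted p below 0.05, beside 3.03% of all peaks tested, and 62 of the 121 had an unadjusted p below 0.05, beside 29.6% of all peaks tested. For promoter peaks those counts were 52 of the 70 members and 42.3% of all promoter peaks.

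The libraries differed in how many tags fell in peaks at all: 13.0, 12.0 and 13.5% in C26 libraries, against 27.0, 13.1 and 17.9% in control libraries, with control 1 standing apart. Since every peak carries that difference, the values were also set relative to the bulk of peaks by median-of-ratios scaling, which moved the median of all peaks tested to -0.02.

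After that scaling the promoter peaks of the members had a median log2 difference of -0.30, with 67 of 70 below 0, beside -0.16 over all promoter peaks, of which 76.4% lay below 0. At an adjusted p below 0.05, 27 of the 70 (38.6%) were called lower and 0 higher, beside 21.2% of all promoter peaks called lower and 2.51% called higher. With edgeR on the recovered tags 29 were called lower and 0 higher, beside 21.6% of all promoter peaks called lower. Without control 1 the scaled fit called 18 of the 70 lower (25.7%), beside 17.5% of all promoter peaks, and without any other single library it called 18 to 25, beside 13.5 to 19.1% of all promoter peaks. The difference in share between the members and all promoter peaks was not tested.

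The promoter peak of Rpl27a, a 60S protein gene, had 41.8, 28.5 and 41.5 normalized tags in C26 libraries, against 119, 54.0 and 79.6 in control libraries. All C26 values lay below all control values. As deposited, the groups did not overlap at 54 of the 70 member promoter peaks, beside 5633 of all 10777 promoter peaks. After scaling these counts were 42 and 3923. The log2 difference was -1.11 ± 0.37 as deposited (SE, limma adjusted p = 0.0675) and -0.58 ± 0.12 after scaling (adjusted p = 0.000245). Rps19, a small subunit gene that is mutated in Diamond-Blackfan anaemia, had 94.8, 94.05 and 104.7 normalized tags in C26 libraries, against 271, 138 and 182 in control libraries, and differed by -0.95 ± 0.33 as deposited (adjusted p = 0.0757) and -0.42 ± 0.09 after scaling (adjusted p = 0.0002). Its groups did not overlap.

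Rps16, a small subunit gene, had 25.75, 26.03 and 25.55 normalized tags in C26 libraries, against 86.7, 38.5 and 54.4 in control libraries, with a difference of -1.11 ± 0.39 (adjusted p = 0.0774), and -0.58 ± 0.14 after scaling (adjusted p = 0.00115). Rps15a, of the same subunit, had 13.7, 10.8 and 20.05 normalized tags in C26 libraries, against 52.7, 19.9 and 37.6 in control libraries. There C26 3 lay just above control 2, so the groups overlapped as deposited. Rpl9, of the 60S subunit, had 26.1, 19.4 and 18.1 normalized tags in C26 libraries, against 71.9, 32.4 and 45.5 in control libraries, without overlap, and differed by -1.14 ± 0.39 (adjusted p = 0.0755) and by -0.62 ± 0.16 after scaling (adjusted p = 0.00295).

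A peak 3248 bases downstream of the start of Rps15, past the end of that gene and in an intron of another transcript, was the one away from a start among the 6 with the smallest p. It had 15.2, 13.2 and 18.4 normalized tags in C26 libraries, against 58.5, 26.7 and 32.1 in control libraries, a log2 difference of -1.20 ± 0.41 as deposited (adjusted p = 0.069) and -0.69 ± 0.19 after scaling (adjusted p = 0.00385).

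At the promoter of Rps6 the signal was 55.0, 47.2 and 49.2 normalized tags in C26 libraries, against 125, 66.8 and 84.0 in control libraries. The log2 difference was -0.81 ± 0.36 as deposited (adjusted p = 0.134) and -0.28 ± 0.11 after scaling (adjusted p = 0.0467). The Rpl3 promoter had 43.3, 35.75 and 40.1 normalized tags in C26 libraries, against 119, 48.6 and 87.0 in control libraries, and differed by -0.46 ± 0.12 after scaling (adjusted p = 0.00249). At both the C26 values lay below all control values as deposited, where 5633 of all 10777 promoter peaks had groups without overlap.

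The promoter of Rps27l went apart from these. It had 73.75, 85.0 and 88.7 normalized tags in C26 libraries, against 164, 83.4 and 115 in control libraries, so the groups overlapped, and after scaling it differed by 0.04 ± 0.10 (adjusted p = 0.815). The strongest promoter peaks were those of Rps21 and Rpl37, with means of 151 and 153 normalized tags, neither called after scaling. A peak 303055 bases from Rps24, also uncalled, was as strong at 151 normalized tags. The weakest peaks tested lay 21145 bases from the start of Rpl5, 45840 bases from that of Rps20 and 44779 bases from that of Rps24, at means of 10.4 to 12.6 normalized tags.

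**Figure D5:**
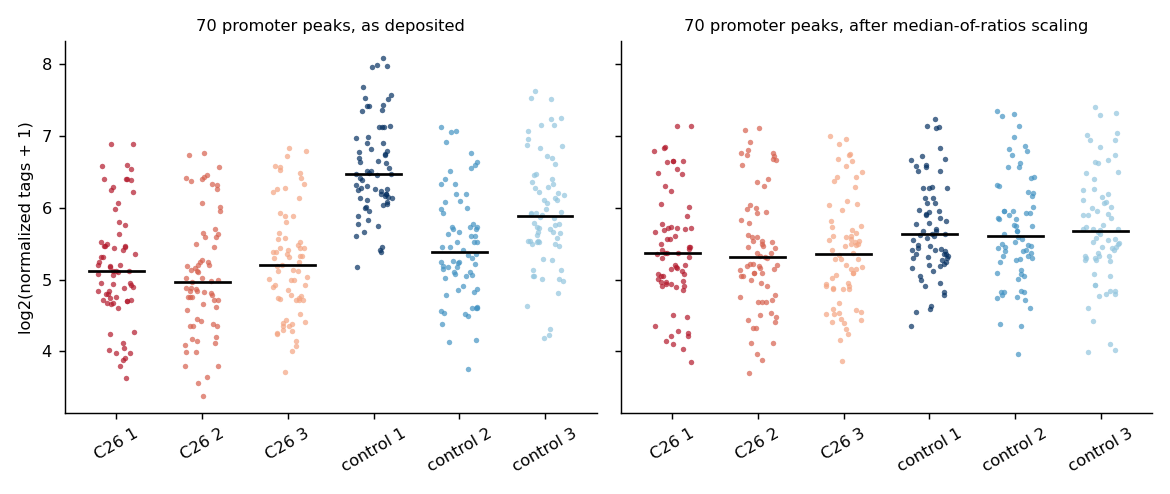
Signal of the 70 promoter peaks of ribosomal protein genes in each C2C12 library, as log2(normalized tags + 1), left as deposited and right after median-of-ratios scaling. Each point is a peak and black lines are medians. As deposited control 1 is highest, and after scaling the medians of the 3 C26 libraries (38.7 to 40.4 normalized tags) lie below those of the 3 control libraries (47.9 to 50.1).

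Peaks away from the starts did not share that direction. After scaling the 51 distal peaks named for members had a median log2 difference of 0.02, beside 0.09 over all 26573 distal peaks, and 11 were called higher and 4 lower. That is 21.6% higher and 7.84% lower, beside 22.9 and 9.28% of all distal peaks. The 3 with the smallest p were called higher and lay 13366 and 44442 bases from Rpl37a and 266851 bases from Rplp1, with log2 differences of 1.11 ± 0.15, 1.01 ± 0.14 and 1.45 ± 0.25. At Rplp0 the promoter peak was called lower after scaling and 1 of 3 distal peaks, at -24339 bases from the start, was called higher. The promoter peak had 62.4, 61.4 and 58.2 normalized tags in C26 libraries, against 163, 79.99 and 123 in control libraries, with a log2 difference after scaling of -0.41 ± 0.10 (adjusted p = 0.00176). The distal peak had 22.2, 32.6 and 28.0 normalized tags in C26 libraries, against 38.0, 17.9 and 16.8 in control libraries, with a log2 difference after scaling of 0.78 ± 0.19 (adjusted p = 0.00159). The other 2, at -20697 and -15689 bases, differed after scaling by 0.00 ± 0.17 and -0.21 ± 0.26 and were not called. All 3 lie in an intron of another transcript, and the groups of the one called overlapped as deposited.

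The RNA and the accessibility data come from different systems, and no library links them, so a promoter value from C2C12 cells given C26 medium and an RNA value from muscle of LLC mice for the same gene were not compared by a test. Of the genes described above, Rpl27a had a lower scaled promoter signal in C26 cells and a muscle RNA difference of 0.37 ± 0.52, and Rps19 had a lower scaled promoter signal and a muscle RNA difference of 0.40 ± 0.50 (log2, SE). Without PBS 1 those RNA differences were -0.22 for Rpl27a and -0.17 for Rps19. The promoter peaks of Rpl3, Rps15a, Rps6 and Rplp0 were also called lower after scaling. The muscle RNA differences of these genes were 0.36, 0.20, 0.06 and 0.02. Without PBS 1 they were -0.39, -0.22, -0.26 and -0.26.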

How the data were processed

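RNA was polyA-selected, and both data sets are tables the authors deposited, 1 per assay, with 3 libraries in each of 4 groups. Per the submitters' processing notes, HISAT2, Bowtie2, HOMER, MACS2 and DESeq2 and the builds GRCm38 and mm10 were used. Which tool did what, and with which version, is not stated there. Per the file headers, RNA values are FPKM per gene made by the authors with HOMER, and ATAC values are signal, tags per peak scaled by the authors to 10 M tags per library, over peaks merged from 6 lists. Every column was mapped to a sample by name. The values are whole multiples of 1 read end or tag (100% of values checked, within 0.1 of a step), which gave back 25.7 to 32.5 M read ends per RNA library and 10.1 to 18.2 M tags per ATAC library. These reads entered edgeR and DESeq2 as alternatives only.

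Here, log2(FPKM + 1) for genes averaging 1 FPKM or more and log2(signal + 1) for peaks with a mean of at least 5 were fitted with limma 3.58.1 (eBayes with trend, R 4.3.3) and Benjamini-Hochberg adjustment over all features. A difference is called at an adjusted p below 0.05. Ratios of paralogs were compared by exact permutation, where the smallest p is 0.1. edgeR was 4.0.16 and DESeq2 1.42.0. Fold changes of low values are understated by the pseudocount of 1. Recovered counts cover sequencing depth only. The main limma fit of each assay was tested on simulated data, and the alternative fits were not. Alternatives covered the pseudocount, the minimum, scaling, the tool, a marrow score, a replicate block and each library left out.

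The members, gene lists and tests were chosen with earlier results of these data known. Members named in the text are the 8 with the smallest p, the 5 highest and 3 lowest by mean, those below the minimum, paralogs with their parents, the stalk genes, Rpsa, Rps6, Rpl5 and Rpl11. For other lists up to 3 genes with the smallest p and Ddit4 and Eif4ebp1 are named, and for ATAC the 6 peaks with the smallest p, the 3 strongest and weakest, and all of Rps27l, Rpl3, Rps6 and Rplp0. Rps27a, Rps3a1, Rps13, the RNA differences of Rpl27a and Rps19, and the peaks called higher away from starts at Rpl37a and Rplp1 were chosen after their values were seen.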

Additional observations from a re-analysis of the deposited data

How the results depend on the processing

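No member gene was called under any planned RNA setting, and the median log2 difference of the members was 0.12 to 0.27 under the other pseudocounts, minima, scalings and tools and 0.44 with the marrow score. Leaving out 1 library gave -0.18 to 0.53, and with the marrow score as well (chosen after seeing the data) 0.26 to 0.53, with 5 members called higher without LLC 3, where 294 of all genes were called higher and 39 lower. Over all genes 1 was called with a minimum of 5 FPKM, with median-of-ratios scaling and with quantile normalization, 2 on a TPM scale, 172 with the marrow score and 312 with DESeq2. Member differences near 0 changed sign with the scaling: with median-of-ratios scaling, edgeR and DESeq2 Rpl4 was at -0.024, -0.012 and -0.028 and Rplp0 at -0.0092, -0.015 and -0.033, Rpl10 was at -0.0055 with quantile normalization, Rps6 at -0.0068 with DESeq2, and Rpsa at 0.049 on a TPM scale and 0.24 with the marrow score, which put Rps13 at 0.055 and Rps27a at 0.37. Leaving out 1 library changed the sign of 25 of the members named, 22 of them without PBS 1 (all but Rpsa, Rps13 and Rps27a), with log2 differences of -0.017 to 0.58 for Rpl24, -0.092 to 1.13 for Rpl13, -0.091 to 1.09 for Rpl30, -0.24 to 0.47 for Rps4x, -0.22 to 0.54 for Rplp1, -0.13 to 0.13 for Rpl4, -0.20 to 0.23 for Rps2, -0.26 to 0.25 for Rplp0, -0.19 to 0.77 for Rpl21, -0.22 to 0.50 for Rps15a, -0.25 to 0.46 for Rpl36al, -0.39 to 0.86 for Rpl3, -0.15 to 0.22 for Rpl10, -0.21 to 0.66 for Rpl39, -0.20 to 0.58 for Rpl36a, -0.26 to 0.63 for Rplp2, -0.40 to 0.29 for Rpsa, -0.26 to 0.34 for Rps6, -0.10 to 0.27 for Rpl5, -0.17 to 0.51 for Rpl11, -0.22 to 0.79 for Rpl27a, -0.17 to 0.79 for Rps19, -0.15 to 0.54 for Rps20, -0.25 to 0.12 for Rps13 and -0.82 to 0.40 for Rps27a. The difference in share of summed FPKM was -0.053 to 1.28 percentage points, that in the Rpl3l to Rpl3 log2 ratio -0.68 to 0.55 and that in the Rps27l to Rps27 ratio -0.077 to 0.00017. For ATAC peaks, 471 of all were called with a minimum of 20 and 2602 without the eBayes trend, which called 7 member peaks lower. Median-of-ratios scaling called 11 member peaks higher and 31 lower and 11121 of all, with a promoter median of -0.30. Quantile normalization called 8, 34 and 11014 (median -0.30), and edgeR 11, 33 and 11354 (median -0.29). Leaving out 1 library as deposited called 0 to 3 member peaks higher, 0 to 91 lower (13 without control 1, 91 without control 2) and 133 to 20602 of all, with a promoter median of -1.08 to -0.54. With median-of-ratios scaling and 1 library left out (chosen after seeing the data) it called 28, 21 and 22 lower without C26 1, 2 and 3, and 22, 23 and 22 without control 1, 2 and 3, with 5 to 10 member peaks called higher, beside 8.66 to 11.1% of all peaks called lower and 5168 to 5748 called higher. The peak 45840 bases from Rps20 was at 0.15 with median-of-ratios scaling, 0.13 with edgeR and -0.73 to 0.055 without 1 library, and that at the start of Rps27l at 0.036, 0.055 and, with quantile normalization, 0.12. The cause of these shifts was not tested.

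Pairing by replicate number was not evident. Deviations of same-numbered libraries correlated at -0.091, 0.599 and -0.599 in RNA and -0.011, 0.008 and -0.017 in ATAC. In RNA the differently numbered LLC 3 and PBS 1 correlated at 0.635, so these values cannot decide whether equal numbers mark paired libraries. With the replicate number as a block (replicate block) the member median stayed at 0.22 with 0 called, and 1071 ATAC peaks were called, none a member.

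With 3 libraries a group and a standard error of 0.38 (log2) for the median member, differences of the size of these medians were not detectable gene by gene. Depth was at least 104 read ends per member and library.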
